A study of Mus musculus with 4 samples.

Results

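The sirtuin genes Sirt1 to Sirt7 and Nampt, 8 genes in all, were examined for open chromatin in sorted bone marrow stem cells of control and Cpt1a-KO mice. Cpt1a is the enzyme that lets long-chain fatty acids enter mitochondria for oxidation. ATAC-Seq, in which the Tn5 transposase cuts accessible DNA, had been done on 2 control and 2 KO libraries. The labels give the cells as ltHSC and the control genotype as WT, while the study names the cells HSPCs, a broader set of stem and progenitor cells. In the methods of the study, control mice carried Cpt1a fl/fl, and KO mice carried Cpt1a fl/fl with Vav1-Cre, which is active throughout the blood system and not in stem cells alone. All mice were on a C57BL/6, CD45.2 background, cells were frozen after sorting, and mice were adult unless stated otherwise. The number of animals behind a library was not given in the sources used here, so every test measured the spread between these libraries. A region was any stretch of mm10 covered by a peak in at least 1 library, with intervals merged where they shared at least 1 bp. A region belonged to a gene when it overlapped the gene body or 5000 bp on either side. By this rule 63 of 337776 regions belonged to the 8 genes, and 34 of these, of 137553 in the whole series, were held by at least 2 libraries. The 63 regions numbered 36 and 38 in the controls against 41 and 36 in the KO libraries.

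The peak lists were of unequal length, from 240940 summits in KO 2 to 277594 in control 1, and the 4 libraries covered 42.6 to 52.9 Mb. The starts of 11 of 11 blood stem and progenitor marker genes with a listed start, among them Kit, Procr and Mecom, had a peak in all 4 libraries. The same held for 3 of 5 myeloid, 2 of 3 B cell, 0 of 5 T cell and 0 of 3 erythroid marker genes. It also held for 2 of 4 genes of tissues outside blood, so a start peak alone does not mark a cell type. The window of Cpt1a held 20 and 19 regions in the controls against 17 and 15 in the KO libraries. The deleted part of Cpt1a was not given in the sources used here, so these peaks are no check of the genotype labels.

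Sirtuins remove acetyl and other acyl groups from proteins and consume NAD+ in each reaction cycle. SIRT1, SIRT6 and SIRT7 act mainly in the nucleus, SIRT2 mainly in the cytoplasm, and SIRT3, SIRT4 and SIRT5 in mitochondria. Nampt makes nicotinamide mononucleotide and sets the rate of the NAD+ salvage pathway. Sirtuins of each compartment are known for parts in fatty acid oxidation, the stress response or the upkeep of blood stem cells.

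The bases just before the starts are shown for Sirt1 and Nampt, whose promoters had the highest GC content of the 8 genes. Short words that a search found there are shown with them. The sequences are from RefSeq on GRCm38.p6, the assembly that mm10 names, and all 8 genes were matched with 10 listed starts, since Sirt3 and Sirt6 have a pair each. Sequences read 5′ to 3′ along the gene unless stated, and capitals mark the word. The 250 bases before the Sirt1 start, chr10:63339036-63339285 on the minus strand, hold the E-box word CACGTG at both places in capitals. The 250 bases before the Nampt start, chr12:32820085-32820334 on the plus strand, hold 5 copies of the GC box GGGCGG, counted on both strands. Each stretch lay inside the start peak of its gene.

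Sirt1: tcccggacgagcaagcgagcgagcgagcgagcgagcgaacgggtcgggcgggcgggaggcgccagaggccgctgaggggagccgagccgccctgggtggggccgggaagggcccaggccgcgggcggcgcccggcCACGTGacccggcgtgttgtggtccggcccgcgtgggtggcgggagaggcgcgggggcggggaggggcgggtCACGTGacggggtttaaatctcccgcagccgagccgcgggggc
Nampt: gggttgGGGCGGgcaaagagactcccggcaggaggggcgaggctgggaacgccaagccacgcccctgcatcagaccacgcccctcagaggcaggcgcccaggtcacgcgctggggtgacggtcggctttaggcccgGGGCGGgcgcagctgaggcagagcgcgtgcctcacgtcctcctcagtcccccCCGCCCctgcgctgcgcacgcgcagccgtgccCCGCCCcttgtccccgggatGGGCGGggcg

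Sirt2 and its neighbor Nfkbib are read away from each other with 107 bases between their starts. This stretch, chr7:28766645-28766751 on the plus strand, is shown for that reason. It holds 1 copy of the word ACTACANNT, a core of the sequence that the factor ZNF143 is known to bind, here on the opposite strand. A further copy begins 1 base past the Sirt2 start, and the Sirt4 window holds 2. The copies are shown with 10 bases on either side, each on the strand on which the word reads ACTACANNT. They lie at chr7:28766674-28766702 and chr7:28766743-28766771, both minus strand, for Sirt2. For Sirt4 they lie at chr5:115484412-115484440 on the plus strand and chr5:115484376-115484404 on the minus strand.

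Sirt2: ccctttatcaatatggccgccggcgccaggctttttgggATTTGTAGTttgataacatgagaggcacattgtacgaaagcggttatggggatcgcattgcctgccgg
Sirt2 word 1: atgttatcaaACTACAAATcccaaaaagc
Sirt2 word 2: aggatagagaACTACAACTcccggcaggc
Sirt4 word 1: ttggaagaaaACTACAAGTcccagaatcc
Sirt4 word 2: ggcttcgcggACTACATTTcccaagatgc

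Over the windows from 250 bases before to 50 bases after each start, Sirt1 had the highest GC content, 79% with 47 CpG, followed by Nampt with 76.3% and 36 CpG. Sirt2, Sirt7 and Sirt4 were lowest, with 50%, 51.3% and 52% GC and 16, 17 and 15 CpG. The median of 32619 listed windows was 53% GC and 7 CpG, so all 8 genes were above the median in CpG while these 3 were below it in GC. ACTACANNT was found in 4.19% of all windows, and among the members in those of Sirt2 and Sirt4. CACGTG was found in 7.20% of all windows and here only in that of Sirt1. GGGCGG was found in 35.9% of all windows and in 7 of the 10, and TATAAA in 13.7% of all windows and in 0 of the 10. CCGGAAG, a core of the ETS family's sequence, was in 8.92% of all windows and in those of Sirt3, Sirt6 and Sirt7. CGCATGCG, a core of the sequence bound by NRF1, was in 1.87% of all windows and in those of Sirt6 and Sirt7, and CCAAT was in 37.6% of all windows and in 3 of the 10. Each word was searched on both strands. CGCATGCG and CACGTG read the same on both strands and were counted once, and no word contains another. The words were chosen after the sequences had been read, so these matches are descriptions only.

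All 8 genes had a peak over the start in all 4 libraries. Among 17274 protein-coding genes with a listed start this was so for 10913, or 63.2%, while 33.4% had no start peak in any library. The lists therefore showed every sirtuin promoter and that of Nampt as open in both genotypes.

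**Figure D1:**
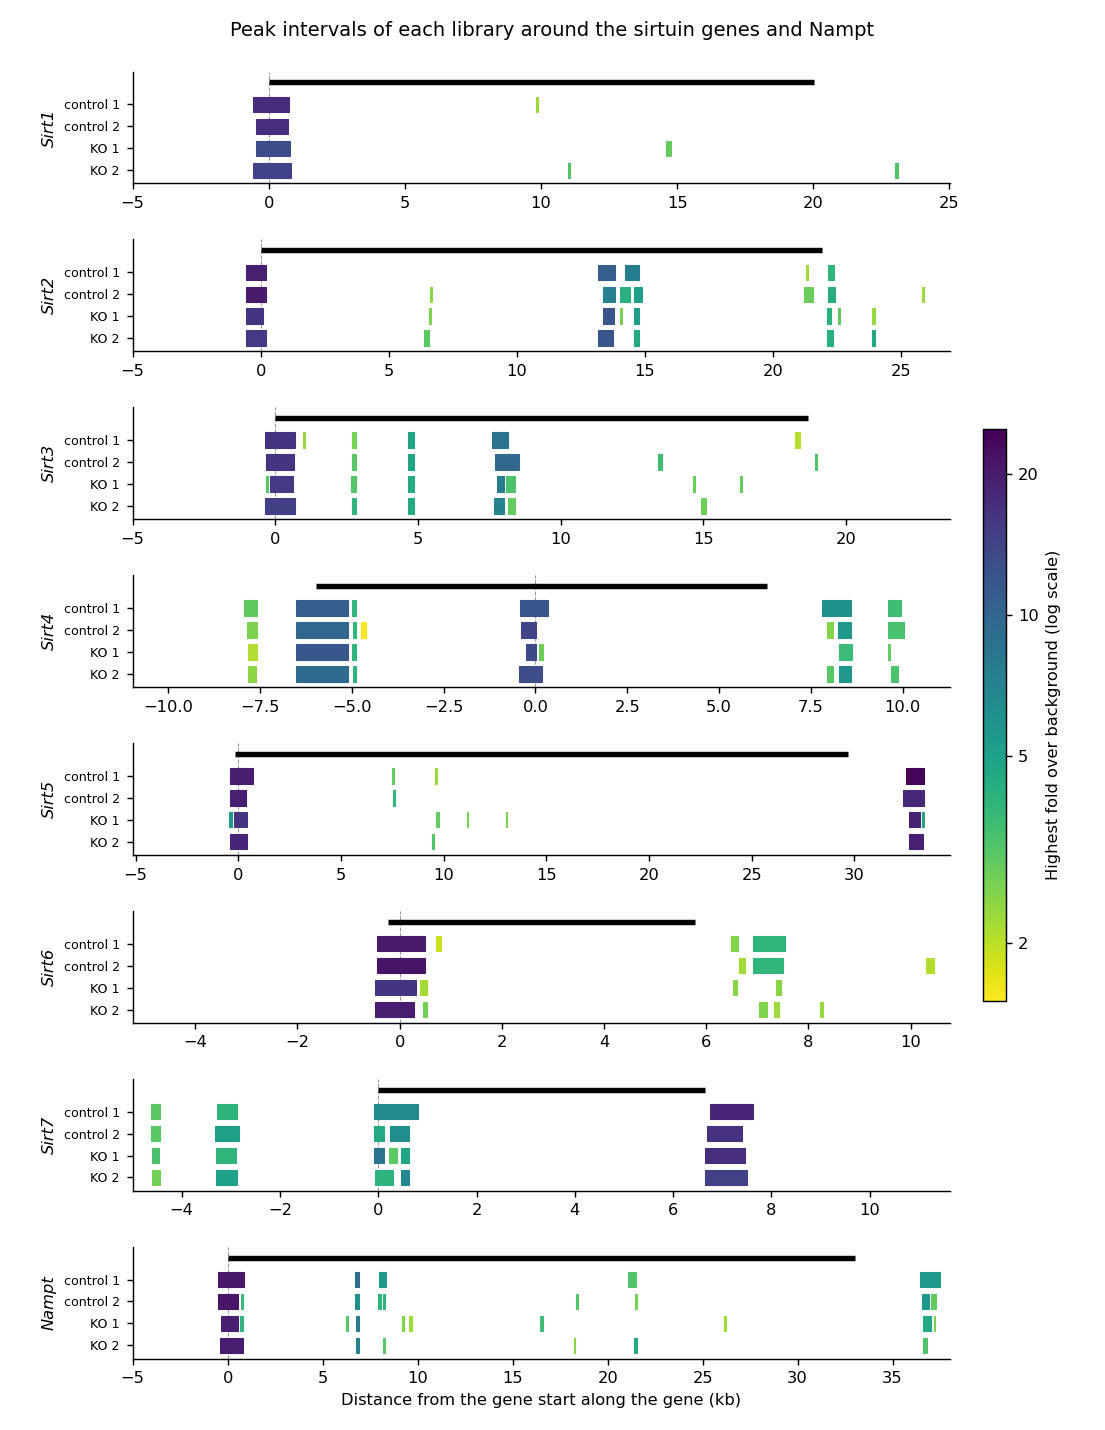
Peak intervals around each gene, with the distance from the gene start along the gene in kb on the x axis and 1 row for each library; the black bar is the gene body and the color of an interval is its highest fold over background, on a log scale. All 4 rows of every gene carry an interval at or beside 0, and many weak intervals inside the genes are in 1 row alone.

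The start peaks differed in strength between the genes. Strength is given as the highest fold of a summit in the region, the ratio of signal to background that the authors' peak caller wrote for each library. It is set beside the percentile that this fold takes among the regions of the same library at coding starts. At the Nampt start (chr12:32819821-32821200) the fold was 20.8 and 21.4 in the controls against 19.7 and 19.99 in the KO libraries, at percentiles 83.0 to 91.7 of start peaks. At the Sirt6 start (chr10:81627020-81628050), which also covers the edge of Ankrd24, it was 20.4 and 21.7 in the controls against 16.2 and 20.1 in the KO libraries. At the Sirt5 start (chr13:43365105-43366240) it was 19.6 and 19.5 in the controls against 16.5 and 18.7 in the KO libraries. These 3 genes and Sirt2 had the strongest start peaks of the 8 in both controls.

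At the Sirt2 start (chr7:28766182-28766966), shared with Nfkbib, the fold was 19.5 and 20.4 in the controls against 16.1 and 15.6 in the KO libraries. At the Sirt1 start (chr10:63338229-63339627) it was 17.9 and 17.0 in the controls against 13.2 and 14.4 in the KO libraries. The KO libraries lay below the controls at both genes, and at Sirt1 the percentile among start peaks was 73.9 and 71.7 in the controls against 48.2 and 59.6 in the KO libraries. At the Sirt3 start (chr7:140881624-140882659), shared with the proteasome gene Psmd13, the fold was 16.6 and 16.3 in the controls against 15.5 and 14.9 in the KO libraries. At the Sirt4 start (chr5:115483955-115484745), shared with Gm42007, it was 12.0 and 14.0 in the controls against 13.5 and 13.1 in the KO libraries, so that the KO values lay between those of the controls. Peaks over a shared start cannot be given to 1 of its genes.

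Sirt7 stood apart from the other 7 genes. At its start (chr11:120624198-120625104), which also covers Mir6936, the fold was 6.63 and 6.28 in the controls against 8.53 and 6.90 in the KO libraries, at percentiles 19.3 to 28.4 of start peaks. It was the weakest of the 8 start peaks in every library, and the only one to be higher in both KO libraries. Its strongest summit lay 533 to 574 bp inside the gene in control 1, control 2 and KO 2, and 35 bp inside the gene in KO 1. The strongest summit was steadier at Sirt2, 182 to 187 bp before the start, at Nampt, 99 to 107 bp before it, at Sirt6, 72 to 76 bp before it, and at Sirt1, 21 to 25 bp inside the gene. The Sirt2 summit lay past the Nfkbib start, inside Nfkbib. The GC box of the Sirt2 window, whose first base is 187 bp before the Sirt2 start, fell at nearly the same place. CCAAT words began on either side of it, 216 and 165 bp before the Sirt2 start. At Sirt4 the summit lay 100 bp before the start in KO 2 and 166 to 179 bp before it in the other 3 libraries.

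**Figure D2:**
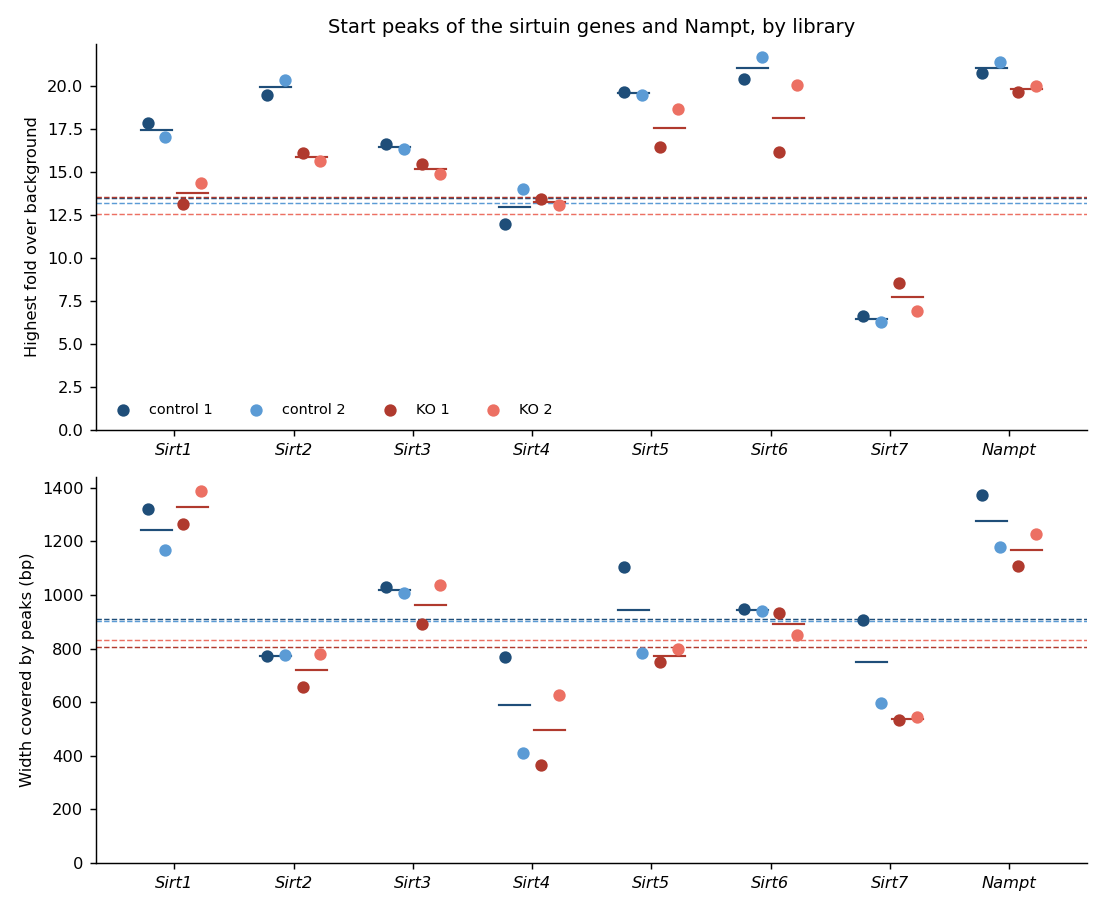
Start peaks by library, with the highest fold over background above and the width covered by peaks in bp below; points are libraries, short lines are group means (n = 2) and dashed lines are each library's median over coding starts. In fold, points of Sirt1 and Sirt2 in the KO libraries sit under those of the controls, and Sirt7 lies below all dashed lines.

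As deposited, the fold was lower in both KO libraries than in both controls at 6 of the 8 starts, those of Sirt1, Sirt2, Sirt3, Sirt5, Sirt6 and Nampt. At coding starts held by all 4 libraries this was so for 21.7%. The reverse order was found at 1 of the 8, Sirt7, against 13.2%, though its summits lay at unlike places in the region. The fold of a peak depends on the depth and background of its library. Library medians over coding starts were 13.5 and 13.2 in the controls against 13.5 and 12.6 in the KO libraries. After quantile normalization, which gives the 4 libraries the same distribution of values over shared regions, KO stayed below control at 3 starts, those of Sirt1, Sirt2 and Sirt3, against 14.1% of coding starts. Sirt7 stayed above, against 22.8%. KO 2 had the lowest −log10 q at 7 of the 8 starts, for example 71.2 at Sirt1 against 163 in control 1, and it also had the shortest list. The part of list depth in these differences was not tested.

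The difference at each region held by all 4 libraries was tested with limma on the quantile normalized log2 fold. None of the 26 member regions passed an adjusted p of 0.05, and neither did any of 80271 regions tested, or 0%. At an unadjusted p under 0.05, 3 member regions were lower and 1 was higher in KO, against 4.07% and 3.56% of all regions. An exact two-sided permutation of 2 libraries against 2 can give no p below 0.333, which leaves any single value above 0.05. In simulated data of this size a planted log2 change of 1 was never recovered and a change of 2 was recovered in 96.5% of regions. The changes were planted in regions drawn from all those tested, and each region's simulated spread was moved toward the median of all regions. Start peaks were not simulated apart, so the recovery of such changes there was not measured.

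At the Sirt2 start the log2 difference between KO and control was -0.28 with an SE of 0.12 (limma, adjusted p = 0.623). At the Sirt1 start it was -0.29 with an SE of 0.14 (limma, adjusted p = 0.651). Both had an unadjusted p under 0.05, 0.0265 and 0.0456, and both kept their sign without any 1 library, though the value at Sirt1 was -0.17 without KO 1. With the libraries centred on their medians in place of quantile normalization they were -0.20 and -0.22. The other starts lay within -0.19 at Sirt6 and 0.35 at Sirt7, the latter from summits at unlike places in the region. The difference was -0.12 at Sirt5, -0.07 at Sirt3, -0.05 at Nampt and 0.11 at Sirt4, with SEs of 0.11 to 0.24 over these 6 starts. Without KO 1 the differences at Sirt5, Sirt6 and Nampt were 0.02, 0.02 and 0.01, and median centring turned those at Sirt3 and Nampt to 0.0038 and 0.04. The median over the 26 member regions was -0.08, and over all regions 0.0042.

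Median centring changed the balance over all regions. Of those with an unadjusted p under 0.05, 2854 were higher and 3269 lower in KO after quantile normalization, against 4063 and 2395 after median centring. Among the members it left 1 region under 0.05, higher in KO, in place of 4.

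**Figure D3:**
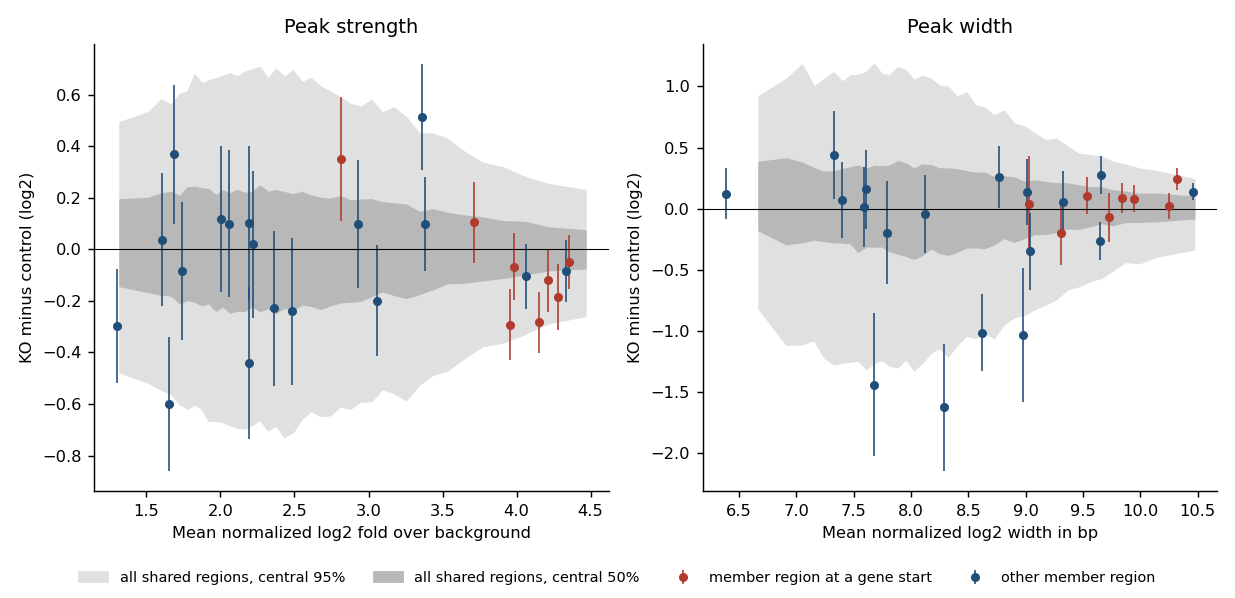
Difference between KO and control (log2) against the mean level, for strength on the left and width on the right; points are the 26 member regions with SE, and the gray bands hold the central 50% and 95% of all shared regions at that level. Members at gene starts other than that of Sirt7 are strong and have small SEs in strength. The largest drops in width belong to regions away from the starts.

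Start peaks were broad at Sirt1 and Nampt. They were narrowest at Sirt4 in every library but KO 2, where Sirt7 was narrower. The Sirt1 start was covered over 1321 and 1167 bp in the controls against 1266 and 1389 bp in the KO libraries, and the Nampt start over 1373 and 1178 bp against 1107 and 1229 bp. Sirt4 varied most within a genotype, with 768 and 411 bp in the controls against 365 and 625 bp in the KO libraries. The median over coding starts was 909 and 902 bp in the controls against 805 and 832.5 bp in the KO libraries. Both KO libraries were narrower than both controls at 2 of the 8 starts, Sirt6 with 949 and 939 bp against 931 and 849 bp and Sirt7 with 906 and 595 bp against 532 and 543 bp. This was so at 41.8% of coding starts, and no member start was wider in both KO libraries, against 4.72%.

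After quantile normalization of the log2 width, the largest difference at a start was 0.24 with an SE of 0.09 at Sirt1 (limma, adjusted p = 0.773). It was 0.41 after median centring and 0.16 without control 2. Among the 26 member regions 0 passed the adjusted p of 0.05, as did 0% of all regions. At an unadjusted p under 0.05, 1 region was wider in KO, against 2.68%, and 2 were narrower, against 3.78%. The median shift over all regions was 0.0355 after quantile normalization and 0.112 after median centring.

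The genes differed in how many shared regions lay in their windows. The windows were of unequal length, from 16006 bp at Sirt6 to 43035 bp at Nampt, and the counts below were not scaled to it. Of the 63 regions, 26 were in all 4 libraries, or 41.3%, against 23.8% of all regions in the series, and the 8 gene starts are among them. With regions over any coding start left out, it was 16 of 53, or 30.2%, against 21.3%. Only 1 library held 29 of the 63, or 46.0%, against 59.3%. By position, 8 of the 26 shared regions were at gene starts, 3 in the upstream flank, 8 in the gene body and 7 in the downstream flank. Over normalized log2 folds, both KO libraries were below both controls at 7 of the 26 shared regions and above them at 4, against 18.6% and 19.1% of all regions.

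Sirt1, the nuclear deacetylase studied most in metabolism, had the fewest shared regions: its start was the only one of 5 regions to be found in more than 1 library. The other 4 regions were each in 1 library, 1 of them in control 1, 1 in KO 1 and 2 in KO 2.

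Sirt2, a tubulin and histone deacetylase, had 10 regions, 4 of them in all libraries. A pair of them lay 13498 and 14444 bp inside the gene, at chr7:28779930-28780571 and chr7:28780778-28781614, over and beside the RNA gene Gm19897. The first had a fold of 10.9 and 7.39 in the controls against 11.9 and 12.0 in the KO libraries, both KO values above both controls. Its log2 difference was 0.51 with an SE of 0.21 (limma, unadjusted p = 0.0219, adjusted p = 0.603), the largest positive value of the 26. Without control 2 it was 0.23, and without control 1 it was 0.80. The second had a fold of 7.64 and 5.23 in the controls against 5.33 and 4.56 in the KO libraries, which overlapped. Its width was 546 and 697 bp in the controls against 276 and 212 bp in the KO libraries. The log2 difference in width was -1.01 with an SE of 0.32 (limma, unadjusted p = 0.0223, adjusted p = 0.773). A shared region at the Rinl start, 22260 bp from the Sirt2 start, had folds of 3.93 to 4.34.

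Sirt3, the main mitochondrial deacetylase, had 3 shared regions inside the gene besides its start, centred 2739, 4749 and 8059 bp from it. The third, chr7:140873784-140874717, was the strongest, with a fold of 8.74 and 9.78 in the controls against 7.86 and 7.11 in the KO libraries, a log2 difference of -0.20 with an SE of 0.21 (limma, adjusted p = 0.874) that was -0.11 without control 2. The nearest, chr7:140879468-140879672, had a fold of 2.69 and 3.12 in the controls against 3.19 and 3.97 in the KO libraries. The KO values lay above the controls there and below them at the third region. Another 7 regions of Sirt3 were each in 1 library.

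Sirt4, a mitochondrial sirtuin with weak deacetylase activity, had 6 of its 7 regions in all libraries. The gene table reaches 115490264, beyond the listed start at 115484297, so regions counted in its gene body lie before that start. A region of this kind, chr5:115489410-115490819, spans that edge at 115490264 and covers the small RNA genes Gm24265 and Gm24407. Whether a further Sirt4 start lies in this region was not tested. The region's fold was 10.9 and 10.0 in the controls against 11.6 and 9.41 in the KO libraries. Its width was 1403 to 1408 bp in all 4, the least variable of the shared regions. Reads of small RNA genes can match other copies, so its level is uncertain. Beside it a narrow region of 77 to 90 bp had folds of 3.93 to 4.05, and one in the upstream flank at Pxn had folds of 2.97 and 2.62 in the controls against 2.09 and 2.42 in the KO libraries. In the downstream flank, chr5:115475677-115476510 had a fold of 6.11 and 5.52 in the controls against 3.66 and 5.62 in the KO libraries, and chr5:115474276-115474715 was covered over 343 and 419 bp in the controls against 73 and 192 bp in the KO libraries. The latter differed in width by -1.44 on the log2 scale with an SE of 0.58 (limma, adjusted p = 0.773), and by -0.70 without KO 1 and -2.25 without KO 2.

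Sirt5, which removes succinyl and malonyl groups in mitochondria, had 1 shared region besides its start, at the start of Nol7 beyond its end (chr13:43397898-43398916). This was the strongest of the 63 regions in control 1, with a fold of 24.1, against 18.4 in control 2 and 19.02 and 19.6 in the KO libraries. The KO values lay between those of the controls.

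Sirt6, a chromatin deacetylase, had 1 shared region besides its start, in the downstream flank (chr10:81620029-81620654). Its fold was 4.02 and 3.95 in the controls against 2.47 and 2.57 in the KO libraries, and its width 623 and 584 bp against 107 and 260 bp, with no overlap in either measure. The log2 difference was -0.60 with an SE of 0.26 in fold (limma, unadjusted p = 0.0312, adjusted p = 0.626) and -1.62 with an SE of 0.52 in width (limma, unadjusted p = 0.0244, adjusted p = 0.773), the lowest of the 26 in both measures. Without any 1 library the difference in fold stayed between -0.65 and -0.57, while the difference in width was -0.92 without KO 1 and -2.29 without KO 2. In the KO libraries its −log10 q was 0.926 and 0.818, so the peak was weak there.

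Sirt7, which deacetylates histone H3 in the nucleus and acts on ribosomal RNA transcription, had all 4 of its regions in all 4 libraries. The strongest lay beyond its end at Pcyt2 (chr11:120617385-120618358), with a fold of 18.7 and 16.7 in the controls against 17.4 and 14.5 in the KO libraries. The other 2 lay over Mafg in the upstream flank, with folds of 3.98 to 5.18 and of 2.74 to 3.35. None of these 3 regions away from the start differed in fold by more than 0.11 on the log2 scale.

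Nampt, with the longest window, had 12 regions, the most of the 8 genes, and 7 of them were in 1 library alone. A shared region inside the gene, chr12:32827060-32827268, had a fold of 9.51 and 6.16 in the controls against 7.90 and 7.32 in the KO libraries, with the KO values between the controls. In the downstream flank, chr12:32856775-32857833 had a fold of 5.52 and 5.63 in the controls against 4.56 and 3.26 in the KO libraries, a log2 difference of -0.44 with an SE of 0.29 (limma, adjusted p = 0.769). It was -0.67 without KO 1 and -0.22 without KO 2. The region was covered over 1059 and 570 bp in the controls against 490 and 199 bp in the KO libraries. A pair of regions inside Nampt, chr12:32828267-32828668 and chr12:32841428-32841878, was missing in KO 1 alone. The other 3 regions held by 2 libraries, 1 each inside Sirt2 and Sirt5 and beyond the end of Sirt6, were in 1 control and in KO 1, with folds of 2.27 to 2.93.

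Peaks present in both libraries of a genotype and absent from the other were weak, and their shares were near those of the series. Such regions were weak in the whole series too, with a median fold of 2.91 only in control and 2.90 only in KO. Of the 34 member regions held by at least 2 libraries, 2 were only in control, against 6.05% of such regions in the series, and 1 was only in KO, against 3.47%. The first, chr7:28787973-28788305 near the end of Sirt2, had a fold of 2.23 and 2.84 and a −log10 q of 0.612 and 1.96. The second, chr13:43373012-43373163 inside Sirt5, had a fold of 2.92 and 3.85 and a −log10 q of 1.47 and 3.68. The region only in KO, chr7:28790607-28790727, lay beyond the end of Sirt2 in Rinl, with a fold of 2.34 and 4.53 and a −log10 q of 0.769 and 4.89. None of the 3 reached a −log10 q of 5 in any library. With weaker summits left out (−log10 q under 5), KO had 0 regions of its own and control had 2, 1 near Sirt2 and 1 near Sirt4. Both had peaks in all 4 libraries before that cut. In the KO libraries their −log10 q was 4.782 and 4.0385 near Sirt2, and 3.195 and 3.7909 near Sirt4.

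**Figure D4:**
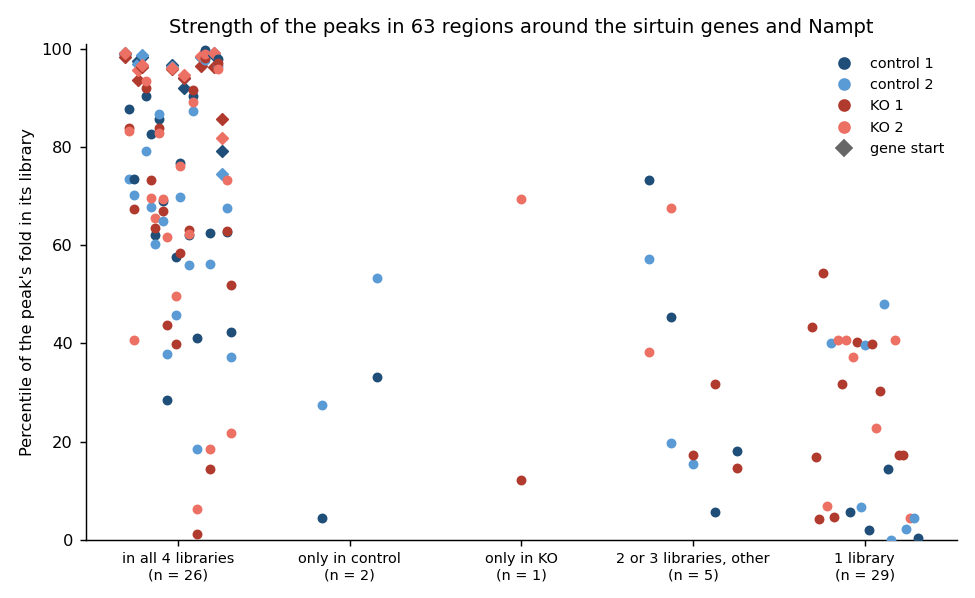
Percentile of a peak's fold within its library (y axis) for the 63 member regions, grouped by the libraries that hold them; points are libraries and diamonds mark gene starts. Start peaks other than those of Sirt7 lie above the 92nd percentile, and the regions in 1 library lie below the 55th.

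Regions in 1 library had a median fold of 2.61 and a median width of 93 bp, against 7.21 and 555.5 bp for peaks of the shared member regions. KO 1 held 11 of them, control 2 and KO 2 held 7 each and control 1 held 4. In the whole series KO 2 held most of such regions, 27.9%, and control 2 fewest, 17.9%. Peaks covered 19481 and 17636 bp of the 8 windows in the controls against 14781 and 15593 bp in the KO libraries, which were also the libraries with less covered genome.

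Other genes of NAD+ metabolism were listed from textbook roles in synthesis, transport and use. Of 30 such genes 20 had a listed start, and 15 of these starts, or 75%, had a peak in all 4 libraries, against 63.2% of coding starts. Among them were Nmnat1 and Nmnat3, which turn nicotinamide mononucleotide into NAD+, the NAD+ consumers Parp1, Parp2 and Cd38, and Nmrk1 and Nadsyn1. Nmnat2, Nmrk2 and Tdo2 had no start peak in any library. The start of Slc12a8 had a peak in all libraries but KO 2, and that of Qprt, which acts on quinolinate on the way to NAD+, in KO 1 alone. Of 222 regions in at least 2 libraries around the 30 genes, 13 were only in control, or 5.86%, and 4 were only in KO, or 1.80%, against 6.05% and 3.47% of all such regions. Regions only in KO were found 1 each at Haao, Nmnat3, Qprt and Slc12a8.

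Of 26 regulators, partners and targets of sirtuins, 21 had a listed start and 20 of these starts had a peak in all libraries, or 95.2% against the same 63.2%. The exception was Ppargc1a, the coactivator of mitochondrial genes that SIRT1 deacetylates, with no start peak in any library. Of 189 regions around these genes, 14 were only in control, or 7.41%, and 8 only in KO, or 4.23%, again against 6.05% and 3.47%. Foxo3, a transcription factor that SIRT1 deacetylates, held 7 of those only in control and 2 of those only in KO, among 25 regions. Ppargc1a held 2 and 3 among 30, and Gabpb1 held 1 and 2 among 12. Acss1, Acss2 and Foxo1 each had 1 region only in control, as did Afmid, Bst1 and Nadk of the NAD+ genes. Further genes of both lists also had regions only in control and are not all named. Ccar2, an inhibitor of SIRT1, had 1 region only in KO.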

How the data were processed

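ATAC-Seq peak lists of 2 control and 2 KO libraries were used, grouped by their titles. The submitters' processing notes name Bowtie2, MACS2 and mm10, with no versions. Each library had its own peak calling by the authors, who deposited 1 row per summit. Besides the position, a deposited row holds the fold, a ratio of signal to background within that library, and the significance of the summit as −log10 p and −log10 q. All rows have a −log10 p of at least 2. The lists hold no read counts, so depth is unknown and no count model or interval could be used. A few summits, 253 to 492 a list, were written as chromosome positions rather than offsets and were read as such. Between 59 and 68 summits per list on chromosome Y were left out.

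Intervals of the autosomes and X were merged across libraries (Python 3.11.15, numpy 2.4.6, pandas 2.3.3; figures with matplotlib 3.10.9). For each region and library the highest fold and the covered base pairs were taken. Regions in all 4 libraries were compared with limma 3.58.1 in R 4.3.3 on quantile normalized log2 values, moderated with a trend and with Benjamini-Hochberg adjustment over all regions. The fit was tested on simulated data. Genes are from RefSeq. The gene table gives no exons or strand, so strand and starts came from the promoter table, and genes without an entry there have no listed start. Alternatives were other list lengths and thresholds, flanks of 1000 and 0 bp, a covered share of at least 0.5, other scalings, and leaving out each library. All 8 genes are named. Other genes were named where their start lies in a window or, from the lists, where a start peak was missing or a region was in 1 genotype alone, up to 8 for each of these by symbol. Genes named as covered by a region, as markers or as examples with a start peak in all libraries were added after their values were seen. Genes and lists were chosen with earlier results of these data known.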

Additional observations from a re-analysis of the deposited data

How the results depend on the processing

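The 26 regions tested, or 18 where every library had to reach a −log10 q of 5, gave 0 calls past the adjusted p of 0.05 in strength and width under every setting tried, and the counts of starts with a peak in all 4 libraries stayed within 1.5 times at a −log10 q of at least 5. With 2 libraries a group and no read counts, depth could not be separated from genotype. A planted 2-fold change was never recovered in data simulated over all shared regions, and start peaks were not simulated apart. The cause of the changes below was not tested.

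The count of regions only in KO, 1, fell to 0 at a −log10 q of at least 5, with lists of equal length, with the 100000 strongest summits per library, with a flank of 1000 bp and with the gene body alone. The count only in control, 2, was 1 with lists of equal length and 6 where a library had to cover a share of at least 0.5. The count in all 4 libraries, 26, was 16 with the gene body alone. Leaving out 1 library, where a lone library stands for its genotype, gave 2 to 10 regions only in control and 1 to 12 only in KO, with 26 to 28 in every library used. The 10 came without control 1 and the 12 without KO 2.

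The 4 strength regions at an unadjusted p under 0.05 became 1 after median centring, and 0 to 3 without 1 library, with 0 without control 2 or KO 1. The 3 width regions became 5 after median centring, 1 where every library reached a −log10 q of 5, and 0 to 3 without 1 library, with 0 without control 2.

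Differences in strength at the starts changed sign after median centring at Sirt3 (0.0038) and Nampt (0.0361). Without 1 library the range was -0.0193 to 0.233 at Sirt4, -0.259 to 0.0215 at Sirt5, -0.387 to 0.0219 at Sirt6 and -0.111 to 0.0135 at Nampt. Differences in width changed sign after median centring at Sirt5 (0.0468). Without 1 library they ranged from -0.427 to 0.497 at Sirt4, -0.334 to 0.187 at Sirt5, -0.00425 to 0.177 at Sirt6, -0.529 to 0.119 at Sirt7 and -0.0816 to 0.128 at Nampt.

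Over all shared regions, deviations from the group means of same-numbered libraries correlated at 0.00466 in strength and 0.00979 in width. This correlation cannot show whether libraries of the same number were handled together. With the replicate number as a block, 18 regions of the series were higher and 36 lower in strength, 0 of them members, and 4 member regions in strength and 4 in width had an unadjusted p under 0.05. The counts of regions held or not held by a library come from no test and have no blocked value.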
